A study of Sus scrofa domesticus with 28 samples.

Results

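ANGPTL1 and ANGPTL2 are 2 genes of the angiopoietin-like family, and their RNA was followed through scar formation in the skin of red Duroc pigs. They were picked by annotation, as the probes whose RefSeq transcript maps to either gene, and each gene had 1 probe printed as 1 spot on the array (NM_001109947 for ANGPTL1 and NM_001109946 for ANGPTL2). They are 2 of 2646 tested genes with a symbol and of 18768 tested features in all. The pair was put forward because of its course over the scar phases and its hyper against hypo differences in these same arrays, so those values are given as a description, without a test.

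Angiopoietin-like proteins are secreted glycoproteins built like the angiopoietins, with a coiled-coil stretch followed by a fibrinogen-like domain, yet they do not act through the TIE receptors of the vessel wall. ANGPTL1 is known in human and mouse mainly as a factor that restrains the growth of endothelial cells. ANGPTL2 is made by stromal cells, fat and macrophages in mouse and human tissue, binds integrins and an inhibitory immunoglobulin-like receptor, activates NF-kappa-B signalling and is known for its part in chronic inflammation and matrix remodelling, in skin among other organs.

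The 28 biopsies came from 2 juvenile castrated male red Duroc pigs, numbered 49 and 50, a breed whose wounds heal with thick scars. Each of 11 groups held both animals equally. Control skin had 4 biopsies. Early scar had 4 hyper and 4 hypo biopsies, where hyper and hypo are the labels' names for the pigmentation of the scar, and all 8 were sham-treated. Mid scar and late scar had 2 biopsies each of hyper pressure, hyper sham, hypo pressure and hypo sham scar, so 8 in each phase. The pressure biopsies of the mid and late phases all came from the right side and the sham ones from the left, so pressure and side cannot be told apart. The hyper and hypo biopsies also differ in a code in their titles whose meaning is not stated, and pigmentation and this code cannot be told apart. With 2 animals, p-values measure the spread between biopsies of these pigs.

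Each biopsy was hybridised in Cy5 against a universal pig reference RNA in Cy3, without dye swap, and values are log2 ratios of biopsy over reference, which compare biopsies for 1 gene but not the levels of different genes. The scanner program flags spots whose signal clears the background; in Cy5 it did so on 31.4 to 55.7% of probes per array, and least often in late hypo scar (31.4 to 41.2%, against 40.0 to 47.1% in late hyper scar). ANGPTL1 was well above background in Cy5 on 28 of 28 arrays and ANGPTL2 on 21 of 28. The reference held little ANGPTL2, with Cy3 well above background on 5 of 28 arrays, against 27 of 28 for ANGPTL1. No spot of either gene was saturated or missing. Of the defining skin markers, the fibroblast collagen gene COL1A2 was well above background on all 28 arrays, and among 6 keratinocyte genes only the cornified-envelope gene IVL was tested, with signal on 26. A few scar biopsies held much muscle RNA. The mean level of 7 of 8 listed muscle genes, each centred on its median over the arrays, was 3.11 in early hypo scar and 4.46 and 5.30 in mid and late hyper pressure scar, 1 biopsy each, against -0.91 to -0.58 in control skin.

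**Figure D1:**
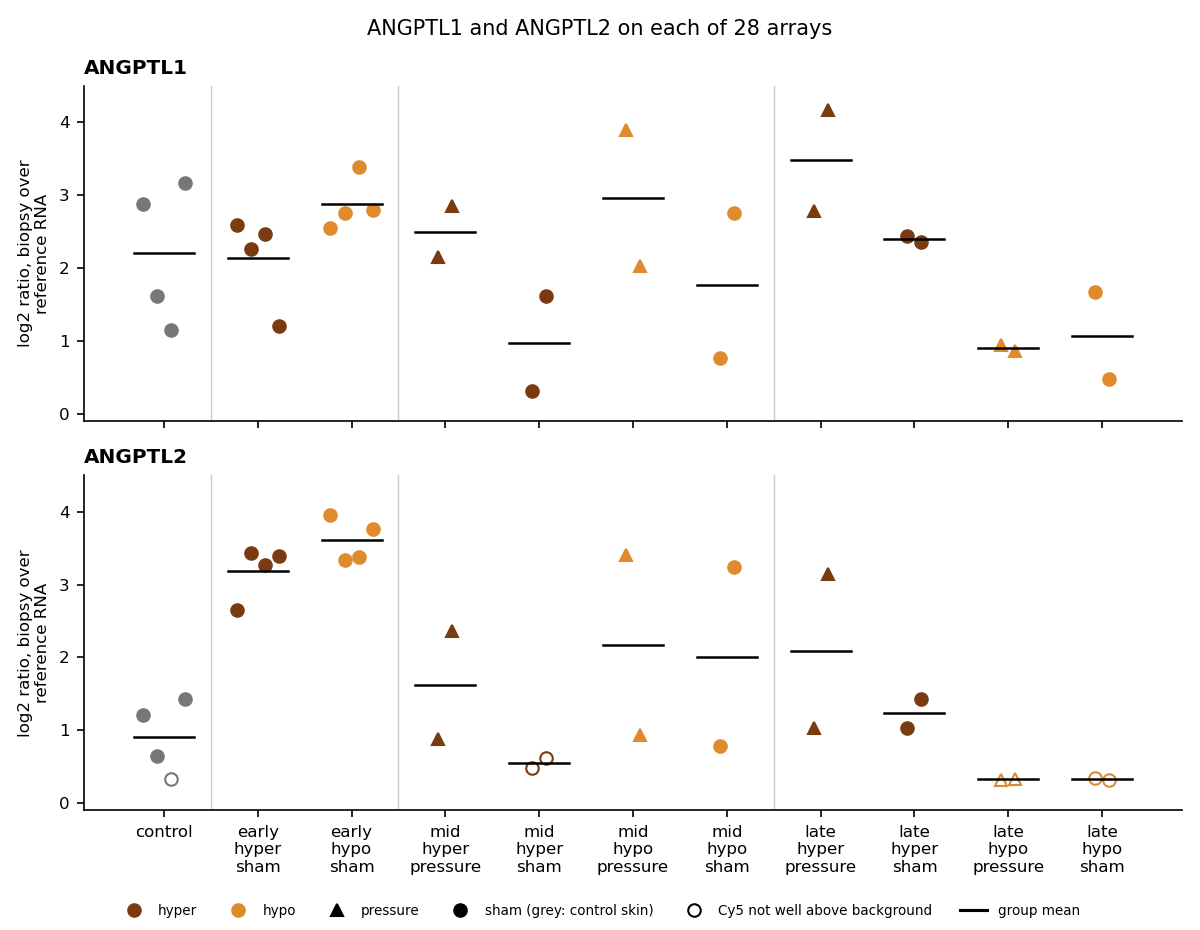
Log2 ratio of biopsy over reference RNA (vertical axes) for ANGPTL1 above and ANGPTL2 below in the 11 groups, 1 point per array; colour gives pigmentation, triangles pressure, circles sham or control, open symbols a Cy5 signal not well above background, and bars group means. ANGPTL2 sat between 2.66 and 3.95 on all 8 early scar arrays and at 0.32 to 0.34 on the 4 late hypo arrays.

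ANGPTL2 stood high in early scar and lower in most later biopsies. In control skin its log2 ratio was 0.65 and 1.22 in animal 49 and 0.33 and 1.44 in animal 50, the 0.33 coming from a spot not well above background. In early scar the lowest of the 8 values was 2.66, the median 3.38 and the highest 3.95. All 8 early biopsies lay above all 4 control biopsies, and the early values spread little. In mid scar the lowest was 0.48, the median 0.91 and the highest 3.41, and in late scar these were 0.32, 0.69 and 3.14. The mid and late biopsies ranged from readings at background to the early level.

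The fitted ANGPTL2 difference of early scar from control skin was 2.49 ± 0.44 (log2, SE), which is 5.62-fold. Averages were 3.40 ± 0.38 in early scar and 0.91 ± 0.51 in control skin (SD, n = 8 and 4). This contrast was among those that chose the gene, and 38.8% of all features were called in it at an adjusted p of at most 0.05 (limma, Benjamini-Hochberg over all features). The median of all features shifted by 0.11. Mid scar differed from control skin by 0.68 ± 0.44 and late scar by 0.09 ± 0.44, with 33.8 and 39.9% of all features called. Among sham biopsies alone, the difference from early scar was -2.12 ± 0.44 in mid and -2.62 ± 0.44 in late scar, in contrasts that called 6.39 and 20% of all features. ANGPTL2 was well above background in 2 of 4 mid sham and 2 of 4 late sham biopsies, so these sizes rest partly on readings at background. Late minus mid scar, over all treatments, was -0.60 ± 0.36, with 1 feature called (0.00533%).

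On the 2 slides that held both early scar and control skin, the ANGPTL2 difference was 2.74 and 3.22, and with slide in the model it was 3.0 ± 0.39. The control biopsies on those slides were the low ones, at 0.65 and 0.33. The higher ones, at 1.22 and 1.44, shared 1 slide that held no early scar. Without the cap on local backgrounds that the processing applied, it was 1.06 ± 0.61. The mean centred level of 5 of 8 listed fibroblast markers (COL1A2, DCN, LUM, THY1 and DPP4) moved the same way, at 0.09 to 1.36 in early scar and -1.90 to -0.69 in control skin. It was -0.83 to 0.33 in mid scar and -1.04 to 0.55 in late scar. Other marker lists also separated early scar from control skin. The mean centred level of 5 of 7 macrophage markers was -0.17 to 1.07 in early scar and -1.15 to -0.37 in control skin, and that of 7 endothelial markers -0.32 to 0.15 in early scar and -1.34 to -0.49 in control skin. The 6 adipocyte markers went the other way, at -0.94 to 0.38 in early scar and 0.83 to 1.97 in control skin. So did 4 of 6 melanocyte genes, at -0.41 to 0.67 in early scar and 1.12 to 1.76 in control skin. The keratinocyte gene IVL was also lower, at -1.90 to 0.33 against 0.84 to 1.16. With the scanner's processed signals, the fitted early minus control difference of IVL was only -0.12. The part of these markers in the ANGPTL2 course was not tested. In whole biopsies a change in the number of cells of a type and a change in RNA per cell cannot be told apart.

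Within mid scar ANGPTL2 fell into a high and a low set that followed neither pigmentation nor treatment. The high values were 3.41 in hypo pressure scar of animal 49, 3.24 in hypo sham scar of animal 50 and 2.36 in hyper pressure scar of animal 50. The other biopsies were low, at 0.88 in hyper pressure scar of animal 49, 0.94 in hypo pressure scar of animal 50, 0.78 in hypo sham scar of animal 49, and 0.48 and 0.63 in hyper sham scar of animals 49 and 50. Each of the mid groups other than hyper sham therefore held 1 high and 1 low biopsy. Both hyper sham spots were not well above background.

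ANGPTL1 values in scar lay around those of control skin. Its log2 ratio in control skin was 1.61 and 2.88 in animal 49 and 1.15 and 3.17 in animal 50. In early scar the lowest value was 1.2, the median 2.57 and the highest 3.39, and in mid scar these were 0.31, 2.09 and 3.90. In late scar they were 0.47, 2.02 and 4.17. Control and scar values overlapped in every phase, and the spread in mid scar (SD 1.16) and late scar (SD 1.22) was wider than in early scar (SD 0.62).

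The fitted ANGPTL1 differences from control skin were 0.30 ± 0.45 in early, -0.16 ± 0.45 in mid and -0.24 ± 0.45 in late scar, each smaller than its error. The control biopsies split by slide: the 2 on one slide read 2.88 and 3.17, and those on 2 other slides 1.61 and 1.15. The early difference was -0.41 on one slide and 1.63 on another, and 0.83 ± 0.35 with slide in the model. Among sham biopsies the ANGPTL1 difference from early scar was -1.14 ± 0.45 in mid and -0.77 ± 0.45 in late scar, and late minus mid over all treatments was -0.08 ± 0.37. The animals gave unlike mid values, with -0.28 when animal 50 was fitted alone and -2.0 in animal 49, each from 1 array per mid group.

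In late scar both genes were higher in hyper than in hypo biopsies, the reverse of the sign seen in the earlier phases. ANGPTL1 read 2.44, 2.79, 2.36 and 4.17 in late hyper scar and 1.67, 0.94, 0.47 and 0.87 in late hypo scar. ANGPTL2 read 1.04, 1.03, 1.43 and 3.14 in late hyper scar and 0.34, 0.32, 0.32 and 0.33 in late hypo scar. For each gene the 4 hyper biopsies lay above all 4 hypo biopsies. Of all features, 5.34% were called in this contrast, 0.506% as higher in hyper and 4.83% as lower.

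The fitted late difference, hyper minus hypo, was 1.95 ± 0.52 for ANGPTL1, or 3.87-fold. For ANGPTL2 it was 1.33 ± 0.51, but none of the 4 hypo spots was well above background. The hypo level itself was therefore not measured. In the Cy5 channel the mean ANGPTL2 reading was 2.28-fold higher in late hyper scar (mean log2 Cy5 7.74) than in late hypo scar (6.55). That hyper mean leaned on the hyper pressure biopsy of animal 50, at 9.11, where the others read 7.02 to 7.64. The near-equal hypo values of ANGPTL2 are the reading of a spot at background. Leaving out the hyper pressure biopsy of animal 50, the highest of the late biopsies for both genes, brought the ANGPTL2 difference to 0.85. On the 1 slide that held both kinds of late scar, the differences were 2.83 for ANGPTL1 and 1.77 for ANGPTL2. With the share of probes well above background as a covariate, which also differed between late hyper and late hypo arrays, they were 1.68 ± 0.59 and 1.13 ± 0.58. The 5 fibroblast markers overlapped fully between these groups, at -1.04 to 0.55 in late hyper and -0.98 to 0.28 in late hypo scar. The 4 of 6 melanocyte genes that were measured lay at 0.03 to 0.67 in late hyper and -0.22 to 0.05 in late hypo scar, and their relation to the 2 genes was not tested.

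In early and mid scar the hyper biopsies tended to the lower side, within wide errors. Early ANGPTL1 read 2.59, 2.27, 2.47 and 1.2 in hyper scar and 2.56, 2.76, 3.39 and 2.80 in hypo scar, a fitted difference of -0.74 ± 0.52 that was -0.40 without the right hyper biopsy of animal 50. Early ANGPTL2 read 2.66, 3.43, 3.27 and 3.39 in hyper scar and 3.95, 3.33, 3.38 and 3.76 in hypo scar, a difference of -0.42 ± 0.51. The groups overlapped for both genes. In mid scar the differences were -0.63 ± 0.52 for ANGPTL1 and -1.01 ± 0.51 for ANGPTL2. On the 1 mid slide with both kinds of scar they were 0.75 and 0.02, and without the hypo pressure biopsy of animal 49 the fitted values were -0.091 for ANGPTL1 and -0.26 for ANGPTL2. No feature was called at either phase (0%), with 874 and 1768 of 18768 at an unadjusted p under 0.05.

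Setting hyper and hypo biopsies of the same animal, side and phase against each other gave the same picture. ANGPTL1 was higher in the hyper biopsy of 1 of 4 early, 1 of 4 mid and 4 of 4 late pairs, and ANGPTL2 gave the same counts. The late counts follow from the full separation of the late groups and are not a separate result. The late pair differences were 0.77, 1.85, 1.89 and 3.30 for ANGPTL1. For ANGPTL2 they were 0.70, 0.71, 1.1 and 2.81, each against a hypo spot at background. The labels name no scar site, and a pair may join biopsies of different scars.

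**Figure D2:**
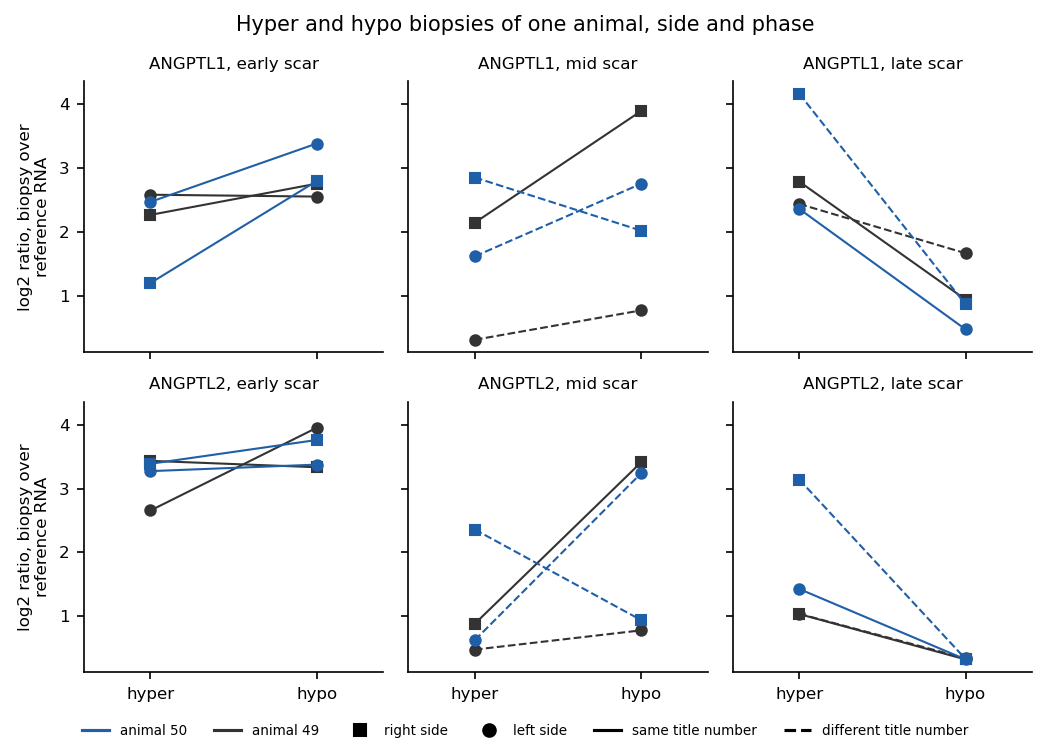
Log2 ratio of biopsy over reference RNA (vertical axes) in hyper (left) and hypo (right) biopsies of the same animal, side and phase, joined by a line; rows are genes and columns phases, and dashed lines join biopsies whose title numbers differ. All 4 late lines run down from hyper to hypo for both genes, while 3 of 4 early and 3 of 4 mid lines run up.

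The sample titles also carry a number without a stated unit, equal to 49 in all early biopsies, 91 or more in mid scar and higher still in late scar. The 3 mid biopsies with high ANGPTL2 all had the number 91, as did 2 of the low ones, and the 3 mid biopsies with larger numbers were all low. In late scar 3 of 4 hyper biopsies but 1 of 4 hypo biopsies had the smallest late number, so it differed between the groups compared. Both members of a late pair shared the number in 2 cases. In those 2 pairs ANGPTL1 was higher in hyper scar by 1.85 and 1.89. For ANGPTL2 the readings differed by 0.71 and 1.1, each against a hypo spot not well above background.

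**Figure D3:**
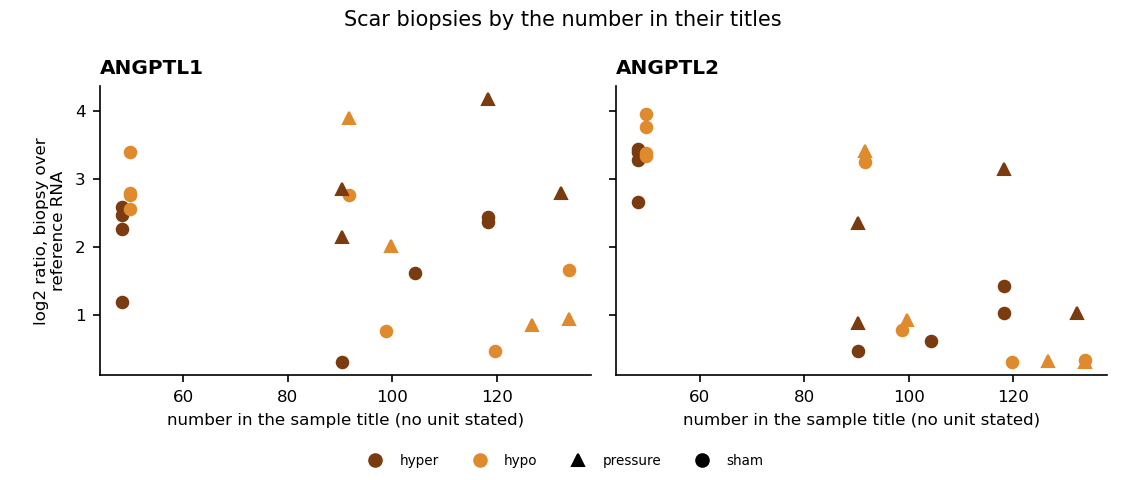
Log2 ratio of biopsy over reference RNA (vertical axis) for the 24 scar biopsies against the number in their titles (horizontal axis, no unit stated), ANGPTL1 left and ANGPTL2 right; hyper points are drawn slightly left and hypo points slightly right of the number, and triangles are pressure biopsies. ANGPTL2 was high at 49 in all 8 biopsies, mixed at 91, and at 1.43 or lower in late scar but for 3.14 in 1 biopsy with the smallest late number.

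ANGPTL1 and ANGPTL2 varied together in mid and late scar but not in early scar. Across the 8 mid biopsies Pearson's r was 0.859 and Spearman's rho 0.929, and r was 0.768 without the 2 biopsies farthest from the ANGPTL1 median. For the 8 late biopsies r was 0.912, rho 0.881 and r without the 2 farthest 0.849. In the 8 early biopsies r was 0.029 and rho -0.071. These are descriptions without a test: arrays share animals, slides and overall signal, and groups were pooled within a phase. ANGPTL2 was well above background in 6 of 8 mid and 4 of 8 late biopsies, so the remaining points are readings at background. The late r pools hyper and hypo biopsies, which lay fully apart in both genes. That contrast was among those used to choose the pair. The 4 control biopsies, too few for a correlation, had the same order for both genes.

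**Figure D4:**
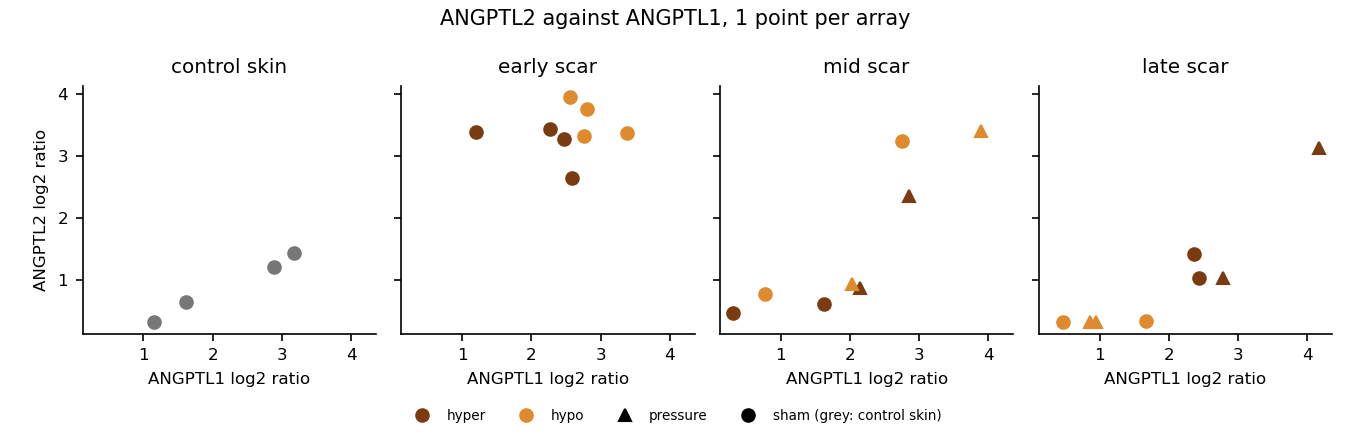
ANGPTL2 log2 ratio (vertical axis) against ANGPTL1 log2 ratio (horizontal axis) in control skin and early, mid and late scar, 1 point per array. Mid and late points run upward together (r 0.859 and 0.912), and the 8 early points form a cloud at high ANGPTL2 (r 0.029).

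Pressure against sham scar is the comparison that the choice of the genes did not use, and neither gene passed the threshold in it. ANGPTL1 in pressure scar had a lowest value of 0.87, a median of 2.47 and a highest of 4.17, against 0.31, 1.64 and 2.76 in mid and late sham scar. The groups overlapped, with pressure the higher in 6 of 8 pairs of the same animal, phase and pigmentation. The fitted difference was 0.91 ± 0.37 (adjusted p = 0.906, limma), and no feature was called (0%), with 957 of 18768 at an unadjusted p under 0.05. In mid scar alone ANGPTL1 was 2.15, 2.85, 3.90 and 2.02 in pressure scar and 0.31, 1.62, 0.77 and 2.76 in sham scar, a difference of 1.37 ± 0.52 (adjusted p = 0.998) that was 0.83 without the hypo pressure biopsy of animal 49. In late scar it was 0.46 ± 0.52 (adjusted p = 0.962).

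The mid ANGPTL1 difference was larger in animal 49. When each animal was fitted alone it was 0.25 in animal 50 and 2.48 in animal 49. Such a fit holds 1 array in each mid group, so it carries no spread between mid biopsies, and whether the animals differ was not tested.

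ANGPTL2 had a lowest value of 0.32, a median of 0.99 and a highest of 3.41 in pressure scar, against 0.32, 0.70 and 3.24 in sham scar. The groups overlapped over their whole range, with pressure the higher in 5 of 8 pairs. Some of these pairs were close to ties. The late hypo pairs differed by -0.017 in animal 49 and 0.0070 in animal 50, all from spots not well above background. The late hyper pair of animal 49 differed by -0.0039. The difference was 0.52 ± 0.36 over both phases (adjusted p = 0.906), 0.62 ± 0.51 in mid (adjusted p = 0.998) and 0.43 ± 0.51 in late scar (adjusted p = 0.963). Without the hypo pressure biopsy of animal 49 the value over both phases was 0.15 and the mid value -0.13, and the late value was -0.057 without the hyper pressure biopsy of animal 50. The pressure effect in hyper minus that in hypo scar was 0.79 ± 0.74 for ANGPTL1 (adjusted p = 0.597) and 0.88 ± 0.72 for ANGPTL2 (adjusted p = 0.536).

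No difference between the animals passed the threshold in either gene. ANGPTL1 averaged 2.24 ± 1.06 in animal 50 and 2.12 ± 0.96 in animal 49, and ANGPTL2 2.0 ± 1.35 in animal 50 and 1.68 ± 1.35 in animal 49 (SD, n = 14 each). The fitted differences, animal 50 minus animal 49, were 0.12 ± 0.28 (adjusted p = 0.944) and 0.32 ± 0.27 (adjusted p = 0.798), where 0.197% of all features were called.

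Among the other 2645 genes with a symbol, the highest Pearson r with ANGPTL2 over the 28 arrays were those of C1QTNF2 (0.965) and C1QTNF3 (0.952), secreted C1q- and TNF-related proteins, and of SHAS2 (0.964), which RefSeq lists under the synonym Has2, a hyaluronan synthase. POMGNT2 (0.942), a glycosyltransferase of the O-mannose pathway, the matrix glycoprotein TNC (0.931) and the microfibril protein FBN1 (0.93) followed. After group means were removed, r for these 6 genes was still 0.776 to 0.943. They carry the ANGPTL2 course by construction: the early minus control difference was 2.83 ± 0.40 for SHAS2 and 4.79 ± 0.71 for C1QTNF3. The most opposite genes were TPD52 (-0.851), UBL3 (-0.848) and the dehydrogenase DHRS7 (-0.814).

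For ANGPTL1 the likeness was looser. It was highest with SGCE (0.774), a sarcoglycan of the dystrophin-associated complex, the zinc finger gene PLAGL1 (0.679) and C2H5orf15 (0.672). MGP (0.668), an inhibitor of mineralisation, the collagen cross-linking enzyme LOX (0.653) and ANGPTL2 itself (0.649) came next. Seen from ANGPTL2, ANGPTL1 ranked 236 of 2645. The lowest r were with the spindle gene SPAG5 (-0.721), the heat shock gene HSPA1L (-0.707) and LOC100517487 (-0.697). All of these most alike genes had the late hyper minus hypo sign of ANGPTL1. The differences were 0.89 ± 0.24 for SGCE, 0.86 ± 0.43 for MGP, 0.90 ± 0.50 for LOX, 0.66 ± 0.21 for C2H5orf15 and 0.22 ± 0.18 for PLAGL1. They were picked for likeness over the same arrays, so the shared sign is not a separate result. The arrays share animals, slides and phases, and no test was made of these likenesses.

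Genes of the same family, pathway and domain class were listed to set the pair in its surroundings, and 23 of them were tested. Against control skin, 6 were called higher and 2 lower in early scar, where 24 and 14.8% of all features were. In mid scar 5 were higher and 3 lower (22.2 and 11.6% of all features), and in late scar 8 and 4 (26.5 and 13.4%). BMP4, counted as lower in each phase, passed the signal filter only through control skin. Among sham biopsies, 0 were higher and 1 lower in mid than in early scar (2.21 and 4.18% of all features), and 4 higher and 3 lower in late than in early scar (9.88 and 10.1%). Without the late hyper sham biopsy of animal 50, 1 was higher in the late contrast, and without the cap on local backgrounds 0. Against control skin the list medians were 0.20, 0.33 and 0.39, beside 0.11, 0.10 and 0.10 over all features. None was called between hyper and hypo scar at any phase, where 0% of all features were in early and mid and 5.34% in late scar. Between pressure and sham scar none was called either, as for all features (0%).

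Of the other angiopoietin-like genes only ANGPTL4, an inhibitor of lipoprotein lipase, was tested, and it passed in no contrast. ANGPTL4 had a median of -0.39 in early scar and -0.32 in control skin. ANGPTL7 had 1 probe, well above background on 0 of 28 arrays. The enzyme LPL itself passed in no contrast either.

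Of the angiopoietins, which do bind TIE receptors, ANGPT2 was the one that passed. ANGPT2, which loosens the vessel wall, had a median of 1.39 in early, 1.53 in mid and 1.47 in late scar, against -0.02 in control skin, with no scar value below the highest control value of 0.38. It was higher than in control skin by 1.42 ± 0.21 in early scar (adjusted p = 2.46e-05, limma) and still by 1.45 ± 0.21 in late scar (adjusted p = 2.61e-05). The stabilising ligand ANGPT1 did not pass in any phase.

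The reported receptor side was represented by 1 gene, the integrin subunit ITGB1. Its log2 ratio was -0.65 to -0.32 in control skin, 1.68 to 1.99 in early, 0.70 to 1.85 in mid and -0.13 to 1.48 in late scar. Every early, mid and late biopsy lay above every control biopsy, and the median was lower in each later phase. ITGB1 was higher than in control skin by 2.35 ± 0.19 in early scar (adjusted p = 1.91e-08) and by 1.1 ± 0.19 in late scar (adjusted p = 1.21e-04). Late sham scar was below early sham scar by 1.42 on the log2 scale (-1.42 ± 0.19, adjusted p = 3.37e-04), and all 6 of its probes had the same sign. The tolloid proteases that cut ANGPTL2 were not analysed here.

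Genes of NF-kappa-B signalling and its inflammatory outputs went in both directions. The monocyte attractant CCL2 was higher in all 3 phases, by 1.26 ± 0.40 in early (adjusted p = 0.0163), 1.25 ± 0.40 in mid (adjusted p = 0.0205) and 1.68 ± 0.40 in late scar (adjusted p = 0.00237). Its early call was lost without either of 2 control biopsies (right side of animal 49, left side of animal 50, adjusted p up to 0.071), its mid call without the same biopsies (up to 0.0885), and its early call also with slide in the model (adjusted p = 0.0796). The matrix protease MMP2 was higher by 1.84 ± 0.33 in early scar (adjusted p = 1.99e-04) and by 0.88 ± 0.33 in late scar (adjusted p = 0.038, a call that 7 of 12 single-array omissions ended). Its mid call was lost without either of the same 2 control biopsies (adjusted p up to 0.125). The cytokine IL6 was higher by 1.13 ± 0.27 in late scar (adjusted p = 0.00239). Its spot was well above background in 2 of 4 control and 7 of 8 late biopsies, so this size rests partly on readings at background. The receptor TLR4 was lower in all 3 phases (-0.58, -0.66 and -0.71, adjusted p = 0.013, 0.00717 and 0.00336), but not in early scar without the left control biopsy of animal 50 (adjusted p = 0.0703). NFKB1 and TNF passed in no phase. IL1B did not pass either, but its spot was well above background in 0 of 4 control, 1 of 8 early, 2 of 8 mid and 2 of 8 late biopsies.

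Among other proteins with a fibrinogen-like domain, tenascin TNC was higher in early scar by 2.21 ± 0.53 (adjusted p = 0.00234), and late sham scar lay below early sham scar (-2.17 ± 0.53, adjusted p = 0.00836). TNC is also 1 of the 6 genes most like ANGPTL2, so its course is not a separate result. TNXB was higher in late scar (1.12 ± 0.32, adjusted p = 0.00866), and the fibrinogen chain FGG in mid and late scar (1.06 ± 0.33 and 1.03 ± 0.33, adjusted p = 0.018 and 0.0179). The TNXB call was lost without the left control biopsy of animal 50 (adjusted p = 0.0558), and those of FGG without the right one (0.0531 and 0.0542).

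Of the linked cues, the growth factor BMP4 was well above background in 4 of 4 control biopsies, 0 of 8 early, 1 of 8 mid and 1 of 8 late biopsies. Early scar held at least 2.4-fold less BMP4 signal in Cy5 than control skin (adjusted p = 1.56e-06 for the log2 ratio). Its log2 ratio was also lower in late scar (adjusted p = 3.63e-06), and no size is given because most late spots lay at background. BMP4 cleared the filter of 4 arrays only through control skin, so its being lower in scar was in part set by that filter. The hypoxia factor HIF1A was lower in mid (-0.73 ± 0.20, adjusted p = 0.00844) and late scar (-0.96 ± 0.20, adjusted p = 8.71e-04).

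**Figure D5:**
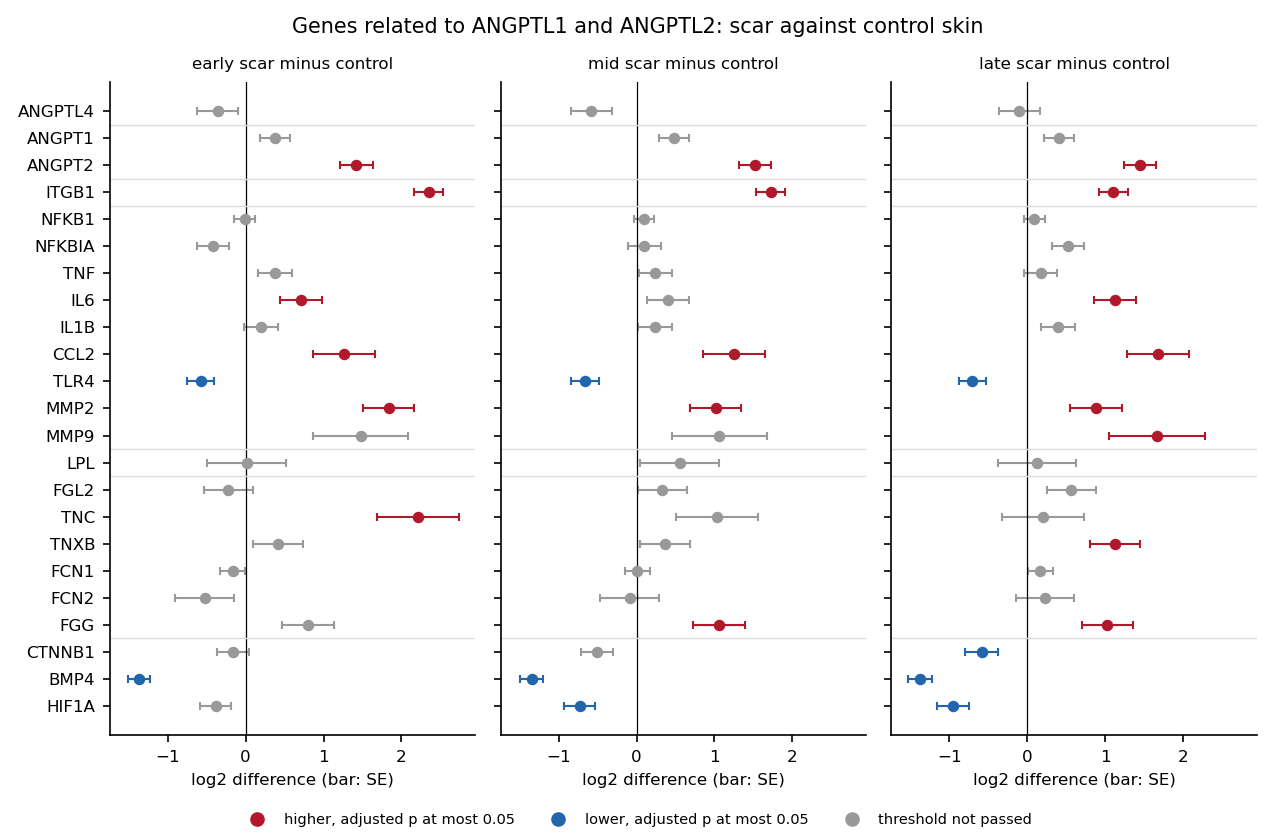
Log2 difference from control skin with its standard error (horizontal axes) for the 23 tested related genes (rows, grouped by list) in early, mid and late scar; red is higher and blue lower at an adjusted p of at most 0.05, grey did not pass. ANGPT2, ITGB1, CCL2 and MMP2 were higher in all 3 phases, and TLR4 and BMP4 lower in all 3. BMP4 passed the signal filter only through its control skin spots.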

How the data were processed

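Cy5 holds biopsy RNA and Cy3 reference RNA, per the labels. Scans were read with Agilent Feature Extraction 10.7.1.1, per the file headers, and the authors deposited median spot and background brightness as intensity, flags for spots (other values), processed signals and their log10 ratio. The authors' deposited value table is in log2 units: it equalled the log2 ratio of the processed signals within 0.001 for 99.89 to 99.9% of probes per array, with column medians of 0.0129 to 0.26, so it is not centred.

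With limma 3.58.1 (R 4.3.3), local backgrounds were capped at the 99th percentile of their array and channel, subtracted by normexp (offset 50), and ratios loess-normalised within arrays. Outlier spots were set missing (0.531% of values). Probes well above background on at least 4 arrays were kept, 24513 of 43603, and the probe with the highest mean Cy5 stood for a gene. Symbols came from matching accessions to RefSeq transcripts (6924 probes, 3216 genes), without coordinates, since the files name no genome build. Of 18773 features 5 were left out because a group was all missing. One model of 11 groups, with animal as a block (a pairing that the labels give), was fitted to the 28 arrays, and p-values adjusted by Benjamini-Hochberg at 0.05 over the 18768 features of each contrast. Slides (7 of 4 arrays) were tried as a block. The pipeline was tested on simulated data.

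The 2 genes, the lists and the comparisons were chosen with earlier results of these data known. Named are the 2 genes, list members with a call or a role in the text, and for each gene the 6 most and 3 least like genes. The number of arrays limits the precision.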

Additional observations from a re-analysis of the deposited data

Results flagged for a closer look

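In 36 checks of 1 gene in 1 set of 4 to 10 arrays, 4 had a biopsy whose gap to the nearest other was large against the range of its set by Dixon's criterion, where chance gives about 1 in 20 and several of the sets share arrays. ANGPTL1 was 3.39 in the hypo biopsy of animal 50 among the 4 left-side early biopsies, of which the other values were 2.47 to 2.59, and this biopsy was the muscle-rich one of early scar. ANGPTL2 was 3.14 in the hyper pressure biopsy of animal 50 among the 8 late biopsies. ANGPTL2 was also 3.24 in the hypo sham biopsy of animal 50, both among the 4 mid sham biopsies and among the 8 mid and late sham biopsies.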

How the results depend on the processing

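Of 446 values of the 2 genes under other settings, 429 kept both sign and side of the threshold or, where untested, moved by less than the replicate spread, and 348 of 352 did so when 1 array was left out. Without the cap on local backgrounds the early minus control difference was -0.60 for ANGPTL1 and 1.06 for ANGPTL2, the ANGPTL2 sham differences from early scar were -0.75 (mid) and -1.36 (late), and its mid pressure difference was -0.17. The late hyper minus hypo difference of ANGPTL1 was 2.80 with slide as a block. In animal 49 alone ANGPTL1 gave -2.0 for mid minus early sham scar, 1.15 for pressure minus sham, 2.48 in mid and -0.19 in late scar, and -0.11 for the pressure effect in hyper minus hypo scar. ANGPTL2 there gave 1.52 in mid scar, -0.010 in late scar and -1.11 for hyper minus hypo. In this fit the pressure differences of ANGPTL1 over both phases and of both genes in mid scar passed the threshold (adjusted p = 0.0151, 0.00228 and 0.0186, limma), but each mid and late group held 1 array, so the error comes from control and early biopsies and the lone arrays are assumed to vary like them. In animal 50 alone mid minus early sham scar was -0.28 for ANGPTL1, and the mid pressure difference -0.28 for ANGPTL2. Over the settings, adjusted p for pressure minus sham ranged from 0.0151 to 1 for ANGPTL1 and from 0.0656 to 1 for ANGPTL2. Leaving out single arrays gave -0.024 to 0.27 for the animal difference of ANGPTL1, -0.13 to 1.37 for the mid and -0.057 to 0.91 for the late pressure difference of ANGPTL2, the -0.057 being the value without the late hyper pressure biopsy of animal 50. The cause of these changes was not tested. With animal and side within phase as the replicate block, hyper minus hypo in late scar was 1.95 ± 0.41 for ANGPTL1 and 1.33 ± 0.56 for ANGPTL2, with the same differences and other errors, and with no replicate block the late differences were the same; the block ended no call. Of the calls named, those of CCL2 in early and mid, TLR4 in mid, MMP2 and TNXB in late and HIF1A in mid scar were lost with slide as a block (adjusted p from 0.0559 to 0.165), and those of FGG in mid and late (0.118 and 0.137), TLR4 in early (0.0545) and MMP2 in late scar (0.0502) with the scanner's processed signals. Counts of related genes moved with median centring, which gave 2 higher and 5 lower in mid scar and 2 higher in late scar; without the control biopsy 50L, 1 was lower in early, 3 higher in mid and 5 higher in late scar. Each gene had 1 probe, so no other probe could be used. Signal over background limits ANGPTL2, since 7 of its 28 Cy5 spots were not well above background.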
